A study of Mus musculus with 17 samples.

Results

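The forestomach of vehicle-treated mice was compared, gene by gene, with a mixture of RNA from 11 mouse cell lines. The arrays were the 5 whose samples are titled as controls, out of 17 in the series. Each array carried forestomach RNA of 1 male MutaTMMouse in Cy5 and, in Cy3, Universal Mouse Reference RNA, the same pool on every array. The controls were 24 to 26 weeks old, received olive oil by gavage once a day for 28 days, and were killed 72 hours after the last dose. RNA came from random sections of the organ, with integrity numbers above 6.6 and 200 ng labelled per array. The MutaTMMouse strain carries a bacterial lacZ reporter transgene used to score mutations, and every group of the series shares it. The other 12 arrays are 4 for each of 25, 50 and 75 mg/kg per day of benzo(a)pyrene (BaP) in the same oil. They show values of named genes on arrays that took no part in naming them. Otherwise they enter only an alternative fit of all 17 arrays.

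The mouse forestomach is the upper, non-glandular portion of the stomach. It is lined by a keratinizing stratified squamous epithelium in which basal cells divide, leave the basement membrane, switch their keratins and finally become flat, cross-linked corneocytes. Beneath the epithelium lie connective tissue, a smooth muscle wall and enteric nerves. The reference pool, by contrast, consists of RNA from proliferating cells in culture, so a ratio places the tissue against growing cell lines and not against another organ.

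The quantity reported throughout is the log2 ratio of forestomach (Cy5) over reference (Cy3), so that 1 means 2-fold higher in the tissue and -1 means 2-fold lower. Errors after ± are standard errors of the limma fit with n = 5 animals, and adjusted p-values are from limma with Benjamini-Hochberg adjustment over all 37163 features. A gene was called higher or lower when its adjusted p was under 0.05 and its ratio was at least 2-fold. The dyes were never swapped and the reference was 1 pool, so a dye effect on a probe is part of its ratio and any spread of the reference is left out. Ratios are relative to an intensity-dependent centring of each array by loess, which, with features split by brightness into 4 equal groups, moved the brightest group by a mean of 1.24 log2 units and the dimmest by -0.19 relative to centring on the median. Moderate ratios of bright genes therefore depend on that centring, and where a gene described below loses its call or turns without it, this is said with its group.

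Before the results, 2 animals have to be set apart. In control 2, transcripts of red blood cells and B cells were far above those of the other controls, and in control 1 transcripts made in liver cells were. The log2 ratios of array pairs that included control 2 correlated at 0.857 to 0.883 across probes, against 0.908 to 0.951 for the other pairs. Probes are not independent replicates, so these coefficients only describe the arrays. Without control 2, 2536 of the 2600 features called higher and 1993 of the 2055 called lower were called again. Controls 1 and 2 were on 1 slide, controls 3 and 4 on another and control 5 on the third. On the control arrays 39.9 to 48.4% of probes were well above background in Cy5 and 59.1 to 63.5% in Cy3, and with arrays it is their number that limits the precision.

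Of 20018 genes with a RefSeq symbol, 2073 were called higher in forestomach, which is 10.4%, and 1572 were called lower, which is 7.85%. The median over these genes was 0, with the middle of the distribution between -0.34 and 0.28. Large ratios were mostly on the tissue side: at 4-fold or more, 928 genes were higher and 297 lower, or 4.64% and 1.48%. At an adjusted p under 0.05 with no minimum fold, 26.1% of these genes were higher and 29.8% lower. Over all 37163 features, named or not, 7% were called higher and 5.53% lower at 2-fold, 2.89% and 1.08% at 4-fold, and 22.3% and 22.8% with no minimum fold. In 137 of the genes called higher the tissue channel was above background on all 5 arrays and the reference channel on none, and the reverse held for 127 of the genes called lower. With median centring in place of loess the split of the calls turned, with 1126 higher and 6536 lower, or 14.7% of the calls on the tissue side against 56.9%. With the scanner's own processed signals 43.8% of the calls were on the tissue side, and in the authors' deposited log2 series table the share was 52.1%.

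Among genes above background in both channels on every control array, the 12 with the highest ratios included keratin, cornified envelope and barrier lipid genes of squamous epithelium. Sparcl1, a secreted matrix glycoprotein, had ratios of 8.14, 8.23, 8.1, 8.03 and 7.91 in controls 1 to 5, a mean of 8.08 ± 0.06 or 271-fold (adjusted p = 5.93e-09). Its 5 values lay within a narrow range, and the 12 treated arrays ran from 7.23 to 8.68. Elovl4, which elongates the very long fatty acids of barrier lipids, read 7.8, 7.7, 7.58, 7.45 and 8.68, with control 5 highest and a mean of 7.84 ± 0.17, and a second probe gave 5.92. Spink5, the inhibitor of epidermal kallikreins, read 8.52, 7.84, 7.2, 6.98 and 8.65, with the same mean of 7.84 and a wider error of 0.26. Lce3a, a late cornified envelope protein, averaged 7.8 ± 0.1, and Lor (loricrin, the main protein of that envelope) 7.72 ± 0.13 or 211-fold. Crct1 and Kprp, from the same family of late differentiation genes, averaged 7.67 and 7.65. The others were Plbd1 at 7.72, Ly6g6c at 7.52, Il1f5 (an antagonist in the interleukin-36 family) at 7.49, the suprabasal keratin Krt1 at 7.48 and Ada, adenosine deaminase, at 7.43. All 12 were positive on each of the 12 treated arrays.

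**Figure D1:**
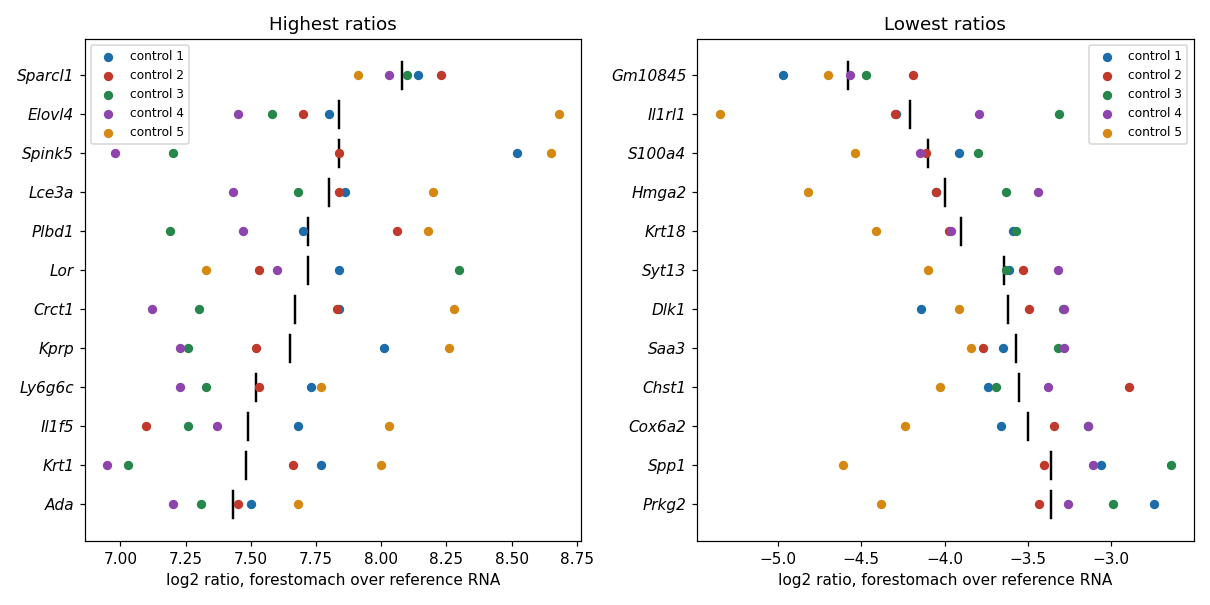
Log2 ratio of forestomach over reference RNA on each of the 5 control arrays (coloured points, 1 per animal) and their mean (black bar), for the 12 genes with the highest and the 12 with the lowest ratios among genes above background in both channels on every control array. The points of a gene lie close together compared with their distance from 0: Sparcl1 runs from 7.91 to 8.23, and S100a4 from -4.54 to -3.8.

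The 12 genes with the lowest ratios, chosen in the same way, included S100a4, Hmga2, Krt18 and Dlk1. S100a4, a calcium-binding protein of motile fibroblast-like cells, read -3.91, -4.11, -3.8, -4.15 and -4.54, a mean of -4.1 ± 0.11 (adjusted p = 2.09e-07). Hmga2, a chromatin protein of embryonic and transformed cells, read -4.05, -4.05, -3.63, -3.44 and -4.82, a mean of -4 ± 0.18. In both genes every animal was more than 8-fold below the pool, since no value was above -3.44. Krt18, a keratin of simple epithelia, averaged -3.9 ± 0.12, and Dlk1, a fetal and preadipocyte membrane protein, -3.62 ± 0.14. Second probes gave -2.69 for Hmga2 and -2.17 for Dlk1. Spp1 (osteopontin) averaged -3.36 ± 0.25 and the interleukin-33 receptor Il1rl1 -4.21 ± 0.26, both lowest in control 5. The remaining genes were Gm10845 at -4.58, Syt13 at -3.64, the acute-phase protein gene Saa3 at -3.57, Chst1 at -3.55, Cox6a2 at -3.5 and Prkg2 at -3.36. All 12 were negative on each of the 12 treated arrays.

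Where 1 channel was not above background the ratio is a bound, computed, per array, from the probe's signal in the dim channel or the faintest signal that passed as above background, whichever was higher. Dye bias can enter these bounds, and a bound larger than the fitted ratio is left out. Some genes described below were above background in a channel on only some arrays, and their ratios rest partly on background signal. In Cy3 this was 1 of the 5 arrays for Cdh5, Tac1 and H2-Aa, 2 for Krt76 and Adipoq, 3 for Klk7, Defb14 and Alas2, and 4 for Krt17, Zfp750, Abca12, Alox12, S100a9, Tff1, Cfd, Mrc1 and Alb. In Cy5 it was 1 array for Afp, 2 for Fos, 3 for Krt20 and Cdk1, and 4 for Krt17, Tff1, Cfd, Adipoq, Usp18, Kif11, Polr1b, Rad18 and Cdkn2a. Hpgd, which inactivates prostaglandins, was at least 47.7-fold higher in forestomach, Aadac at least 46.4-fold, the serpins Serpinb3a and Serpinb13 at least 43.8-fold and 43.7-fold, and the connexin gene Gjb6 at least 42.8-fold. Tmprss11a followed at 31.3-fold, Mup20 at 30.6-fold and the adhesion molecule gene Chl1 at 21.1-fold. Mup20, a major urinary protein made in liver, had ratios of 7.61, 4.31, 6.64, 4.61 and 1.92 in controls 1 to 5, against a reference signal at background on each array. In the other direction Hoxc9 was at least 10.1-fold lower in forestomach. The chemokine genes Cxcl1, Cxcl5 and Ccl4 were at least 12.5-fold, 7.79-fold and 7.65-fold lower, and Ptgs2, the inducible cyclooxygenase, at least 7.57-fold. Spinkl and Prl2c5 completed that group at 10.9-fold and 9.5-fold.

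Krt5 and Krt14 form the filament pair of basal keratinocytes. Krt5 read 3.75, 3.46, 3.83, 3.61 and 3.56, a mean of 3.64 ± 0.07 or 12.5-fold (adjusted p = 5.5e-08), and a second probe gave 2.67. Krt14 read 4.03, 4.03, 3.98, 3.65 and 3.87, a mean of 3.91 ± 0.07 or 15-fold, and Krt15 averaged 3.17 ± 0.16. These animals differed by little, and no value of any of the 3 genes fell below 2.43. Of 11 basal keratinocyte genes 8 were called higher and 0 lower, with a list median of 3.11, including the hemidesmosome genes Itgb4 at 3.33 and Col17a1 at 4.48 and the desmosomal cadherin Dsg3, at least 8.35-fold on the probe used and 1.57 on another. Itga6 and Dst, other hemidesmosome components, were not called at 0.15 and 0.04, and with median centring both were called lower, at -1.19 and -1.04. Of the laminin genes Lamb3 was called at 1.12, and Lama3 was not at 0.92. Lamb3 lost its call without control 5, at 0.95, and with median centring, at 0.06.

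Krt1 and Krt10, the pair of keratinizing skin, averaged 7.48 ± 0.16 and 5.07 ± 0.09, or 178-fold and 33.5-fold. Krt4 and Krt13, the pair of oral and oesophageal epithelium, averaged 6.51 ± 0.15 and 5.2 ± 0.1, or 91.5-fold and 36.7-fold. Both pairs were above the pool in all 5 animals, the lowest single value being 4.78 in Krt10, whose second probe averaged 6.99. Krt78 averaged 4.64 and Krt76 2.4. The keratins that rise in wounded or hyperplastic epithelium were uneven between animals. Krt6b read 6.16, 4.84, 5.05, 3.42 and 6.04, Krt17 read 2.94, 1.48, 1.71, 0.23 and 2.48, and Krt16 read 2.12, 0.22, 0.56, 0.48 and 1.91. In all 3 controls 1 and 5 were highest, and Krt16 was no longer called without either of them, at 0.79 and 0.84, or with median centring. The brightest Krt6b probe averaged 5.1 and a second one 2.41, while Krt6a was above background in only 2 animals and not called at 0.19. Of the 12 suprabasal and stress keratins 9 were called higher and 0 lower, with a median of 3.52.

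Krt8 and Krt18 pair with each other in glandular and embryonic epithelium. Krt8 read -2.75, -3.41, -2.59, -3.25 and -3.99, a mean of -3.2 ± 0.19, and Krt18 -3.9 ± 0.12, so the pool was 9.19-fold and 14.9-fold above the tissue. Krt20 at -2.4 and Krt19 at -1.37 were also called lower, and Krt7 was not called at 0.04, with values from -0.71 to 0.84. That made 4 of 5 lower and 0 higher.

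The cornified envelope, the cross-linked protein shell of the dead surface cells, had 16 of 19 measured members called higher and 0 lower, with a median of 4.51. Besides loricrin, these included Krtdap at 6.4 ± 0.07, Rptn (repetin) at 6.41 ± 0.13, Sprr3 at 5.86 ± 0.1, Sprr1a at 4.46 ± 0.07 and Cnfn (cornifelin) at 5.62 ± 0.05. The plakins that anchor the envelope, Evpl and Ppl, averaged 4.51 and 3.76, and Tgm1, the transglutaminase that cross-links it, 5.07 ± 0.17 or 33.7-fold. Tgm3, a second such enzyme, depended on the probe: the one used gave 0.73 and was not called, and another, above background in both channels on all 5 arrays, gave 3.5. Ivl (involucrin) was at least 2.66-fold higher, with values from 1.12 to 1.75 and 0.76 on another probe. Sprr1b was the uneven member, with 2.45, 1.12, 2.35, 1.02 and 3.94. Crnn was not called at 0.19 and Sprr2f at 0.51.

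Of 14 desmosome and junction genes 8 were called higher and 0 lower, with a median of 2.16. Perp, a desmosome protein needed in stratified epithelia, averaged 6 ± 0.12, Dsp (desmoplakin) 5.68 ± 0.11, the plakophilin Pkp1 4.37 ± 0.12 and Cdh1 (E-cadherin) 4.97 ± 0.14, or 31.4-fold. A second Dsp probe gave 2.32. The connexin gene Gjb2 averaged 6.6 ± 0.21 or 96.8-fold. Claudins did not reach the fold threshold, with Cldn1 at 0.85 and Cldn4 at 0.56 on the probe used and 1.36 on another, nor did Jup (plakoglobin) at 0.94. Epcam, an adhesion molecule of simple epithelia, was not called at -0.3, and with median centring it was lower at -1.27. Jup was called without control 4, at 1.1.

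Of 19 proteases and protease inhibitors of stratified epithelium, 15 were called higher and 0 lower, with a median of 3.13. The kallikreins that shed surface cells by cutting desmosomes were among them: Klk5 averaged 6.42 ± 0.17, Klk8 5.57 ± 0.12, Klk13 5.02 ± 0.24 and Klk7 2.67 ± 0.3. Their inhibitor Spink5 stood at 7.84, and the serpins Serpinb5 (maspin) and Serpinb12 at 6.34 and 5.48. Prss8 and St14, membrane proteases of a common cascade, averaged 2.66 and 1.7, and another Prss8 probe gave 4.03. St14 lost its call with median centring, at 0.54. The cystatin gene Stfa3 differed between animals, with 2.04, 2.48, 4.44, 4.03 and 1.82, and here controls 3 and 4, which shared a slide, were highest. Klk14, Stfa1, Prss27 and Tmprss11d were not called.

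The lipid barrier list had 11 of 12 members higher and 0 lower, with a median of 3.7. These genes make and process the ceramides and acylceramides that waterproof skin. Cers3, a ceramide synthase, averaged 6.67 ± 0.18 and the lipid transporter gene Abca12 5.21 ± 0.19. The lipoxygenase genes Aloxe3, Alox12b and Alox12 averaged 4.29, 3.25 and 1.88 (other probes of Alox12b and Alox12 gave 1.74 and 0.39), the ceramidase gene Acer1 4.93 and the cholesterol sulfotransferase gene Sult2b1 4.16. A second Cers3 probe gave 1.15, so the size of that ratio depends on the probe.

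Transcription factors of squamous epithelium were called higher in 15 of 18 cases and lower in 0, with a median of 2.96. Grhl3 and Grhl1, grainyhead factors of barrier formation, averaged 5.72 ± 0.17 and 4.94 ± 0.16. Grhl3 read 5.47, 5.49, 5.52, 5.5 and 6.6, with control 5 above the others. Pitx1 averaged 5.61 ± 0.07, Tfap2c 5.13 ± 0.2, Ehf 5.01 ± 0.11, Zfp750 4.24 ± 0.25 and Klf4 2.88 ± 0.12. Sox2, which marks foregut epithelium, was at least 5.6-fold higher. Trp63, the p63 gene that defines stratified epithelia, had 2 probes that disagreed, both above background in both channels on all 5 arrays. The brighter one, which stands for the gene here, read 0.72, 1.01, 0.72, 0.65 and -0.03 and was not called at 0.61 ± 0.14. The other averaged 5.73. Which transcripts each probe detects was not examined, so no direction is given for Trp63. Pax9, another foregut factor, was not called, on a probe not above background in Cy5 in any control. Elf3 was not called at -0.51. The ratio compares with a pool, so a value near 0 does not show that a gene was low in the tissue.

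**Figure D2:**
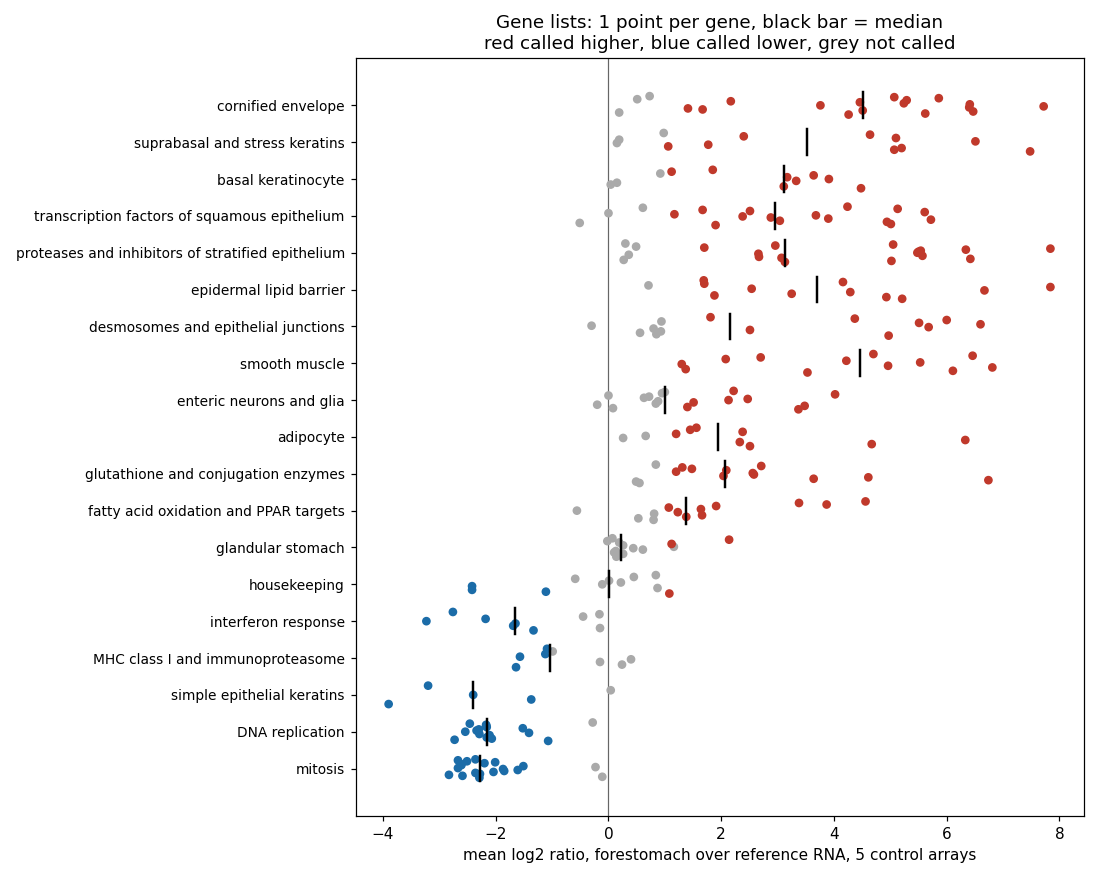
Mean log2 ratio over the 5 control arrays for every gene of 19 lists (1 point per gene, red for called higher, blue for called lower, grey for not called), with the median of each list as a black bar. Squamous, lipid barrier and smooth muscle lists lie to the right of 0, with medians from 2.16 to 4.51, and the DNA replication and mitosis lists to the left, with medians of -2.16 and -2.28.

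The epithelial lists kept their side of 0 under each scaling. With median centring the cornified envelope median was 3.16, that of the suprabasal keratins 2.62 and that of the basal keratinocyte genes 2.04, and 16 of 19, 8 of 12 and 6 of 11 members were called higher.

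Epithelial antimicrobial and alarm genes were mixed, with 6 of 13 higher and 0 lower and a median of 0.72. Il36rn was not matched by its symbol and left out, so the interleukin-36 antagonist gene Il1f5, at 7.49, is not among the 13. S100a14 averaged 6.31 ± 0.08, Il1f6 (interleukin-36 alpha) 6.96 ± 0.13, the defensin gene Defb14 3.29, and the antiprotease gene Slpi 1.56. Defb1 was called higher with Cy3 above background on no array. Slpi lost its call with median centring, at 0.18. S100a9 and S100a8 encode the 2 chains of calprotectin, abundant in neutrophils. S100a9 read 3.43, 6.75, 3.36, 2.84 and 4.93 and was called at 4.26 ± 0.53, while S100a8 read -2.22, 2.44, -1.76, -1.73 and -1.84 and was not called. Control 2 was the highest for both, and without it S100a8 was called lower, at -1.89. Camp, the cathelicidin gene of neutrophils, read 3.59 in control 2 and -0.18 to 0.04 in the others. The part of blood cells in these values was not tested.

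The labelled tissue was checked against glandular stomach. Of 14 glandular markers 2 were called higher and 0 lower, with a median of 0.22. Atp4a (the acid pump of parietal cells), Tff2 and Chia1 were not above background in either channel on any control array, and Atp4b, Pgc (progastricsin) and Cblif (intrinsic factor) were above background in Cy5 in 1 animal each. Tff1, a surface mucous cell peptide, was called at 2.14 ± 0.64 from 0.88, 2.4, 0.08, 2.21 and 5.13, and Gkn2 read 0.14, 0.7, -0.05, 0.86 and 4.15 and was not called. Both were highest in control 5, and the Tff1 call was lost without control 2 or without control 4. Muc5ac was called at 1.12 and lost its call with median centring, at 0.88. Of 7 intestinal and 8 pancreatic acinar genes 1 each was called higher, where 10.4% of all genes with a symbol were. The pancreatic call was lost with median centring and without control 5. Among mesothelial genes, which the outer surface could add, Msln was lower at -1.6 and the other 5 were not called.

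All 12 smooth muscle genes were called higher, with a median of 4.46. This is the contractile wall of the organ. Cnn1 (calponin) read 6.96, 6.78, 6.91, 6.39 and 7.01, a mean of 6.81 ± 0.1 or 112-fold (adjusted p = 1.62e-08). Myh11, the smooth muscle myosin heavy chain, read 5.73, 5.58, 5.61, 5.16 and 5.55, a mean of 5.53 ± 0.09 or 46-fold. Control 4 was lowest in both, by less than 1 log2 unit. The actins Actg2 and Acta2 averaged 6.11 ± 0.15 and 3.53 ± 0.12, Tagln (transgelin) 4.7 ± 0.09, Des (desmin) 4.96 ± 0.13 and the kinase gene Mylk 4.22 ± 0.07. Myocd (myocardin), the coactivator of this gene set, was called higher with Cy3 above background on no array. Second probes gave 0.62 for Smtn, against 2.7, and 1.73 and 0.77 for Synpo2, against 6.46. Cald1, at 1.37, lost its call with median centring and the list then had 11 of 12 members higher. In a bulk sample more cells of a type and more RNA per cell cannot be told apart, here and in the other cell type lists.

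Of 17 neuronal and glial genes 8 were called higher and 0 lower, with a median of 1. The neuropeptide genes led: Tac1 (substance P) averaged 4.02 ± 0.15, Grp (gastrin-releasing peptide) was at least 11.1-fold higher, Cartpt averaged 3.37 ± 0.13 and Vip was at least 4.67-fold higher. The glial gene S100b averaged 2.13. Neuronal genes near the threshold, such as Uchl1 at 1 and Ret at 0.88, were not called (Uchl1 was without control 1 or control 4, at 1.06 and 1), and Nos1 and Chat were not above background in Cy5 on any array. Of the markers of interstitial cells of Cajal, the pacemaker cells of the gut, Ano1 averaged 2.62, and Kit was called higher with Cy3 above background on no array. Etv1 was lower at -1.15 on the probe used and at -0.29 on another. Kit is also a mast cell receptor, and 4 of 8 mast cell genes were called higher, among them Mcpt4 at 3.18 and Cpa3 at least 6.71-fold.

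Of 11 fibroblast genes 5 were higher and 3 lower, with a median of 0.83 that turned to -0.51 with median centring. Lum (lumican) averaged 4.72 ± 0.18, Fbln1 3.13 ± 0.13, Dpt 2.84 ± 0.12 and Dcn (decorin) 2.23 ± 0.16, all genes of resident connective tissue. Fibrillar collagen was lower or not called: Col1a1 read -2.32, -2.21, -1.24, -2.3 and -1.36, a mean of -1.89 ± 0.19, Col1a2 averaged -1.15 and Col3a1 -0.04. The receptor gene Pdgfra was lower at -1.53. With median centring Dcn lost its call, at 0.86, and Col3a1 was lower at -1.4. Endothelial genes were called higher in 4 of 11 cases, with Cldn5 at 2.85 and Cdh5 at 1.83.

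Of 20 mitosis genes 18 were called lower in forestomach and 0 higher, with a median of -2.28, and of 17 DNA replication genes 16 were lower and 0 higher, with a median of -2.16. Mki67, the proliferation marker Ki-67, read -2.75, -0.82, -2.74, -3.49 and -3.22, a mean of -2.61 ± 0.35 (adjusted p = 0.000606), and a second probe gave -2.34. Top2a, the topoisomerase of dividing cells, read -2.48, -1.8, -2.29, -2.78 and -3.17, a mean of -2.51 ± 0.18. Mcm6, a helicase subunit, read -2.56, -1.44, -3.1, -3.07 and -2.52, a mean of -2.54 ± 0.23. In all 3 the highest value was that of control 2. The array medians of the mitosis list ran from -3 to -1.26, and without control 2 the list median was -2.46 with 18 of 20 lower. Aurkb was not above background on any array in either channel, and Cenpf, at -0.23, and Tyms, at -0.28, were not called. Other probes of Cdk1 gave 0.06 and -0.12 against -1.87 for the one used.

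**Figure D3:**
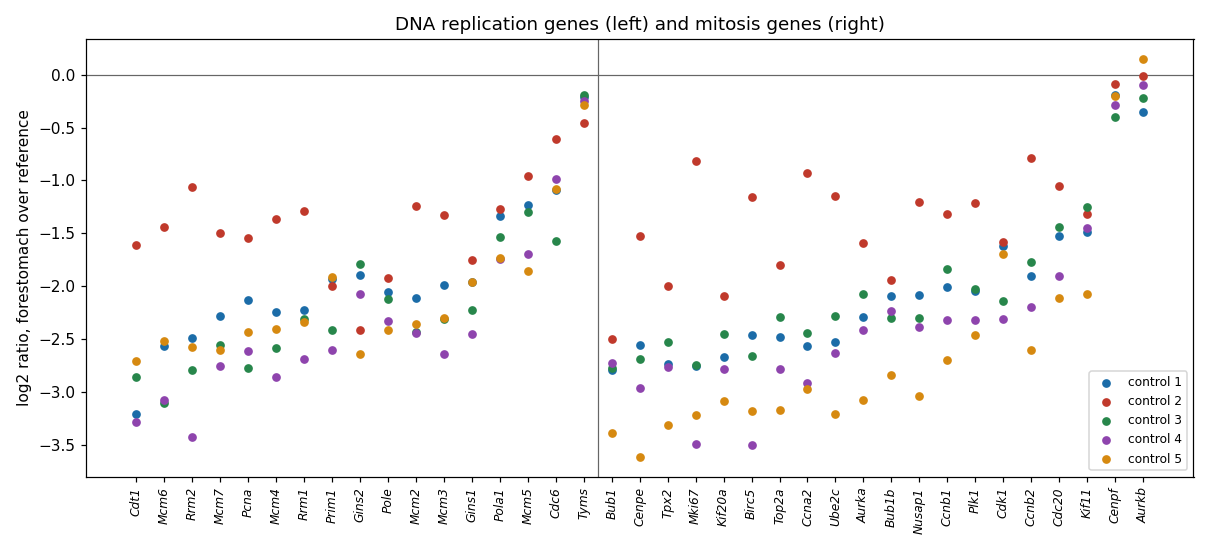
Log2 ratio of forestomach over reference RNA for each DNA replication gene (left of the vertical line) and each mitosis gene (right), with 1 coloured point per control animal. Control 2 lies highest for 32 of 37 genes, as in Mki67 with -0.82 against -3.49 to -2.74 in the others.

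Many mitotic genes carry the cell cycle homology region, a short promoter element. The DREAM complex, which keeps such genes silent in resting cells, is among the complexes that bind it. The promoters of members that were lower together are shown because the element can be seen in them. They are from RefSeq on build GRCm38.p6, 300 bases each from 250 before the gene start, 5′ to 3′ along the gene, with the element, TTTGAA on either strand, in capitals. Mki67 is from chr7:135716330-135716629 (minus strand), Top2a from chr11:99024140-99024439 (minus), Kif11 from chr19:37376132-37376431 (plus), Cdc20 from chr4:118437294-118437593 (minus) and Ube2c from chr2:164769679-164769978 (plus).
Mki67: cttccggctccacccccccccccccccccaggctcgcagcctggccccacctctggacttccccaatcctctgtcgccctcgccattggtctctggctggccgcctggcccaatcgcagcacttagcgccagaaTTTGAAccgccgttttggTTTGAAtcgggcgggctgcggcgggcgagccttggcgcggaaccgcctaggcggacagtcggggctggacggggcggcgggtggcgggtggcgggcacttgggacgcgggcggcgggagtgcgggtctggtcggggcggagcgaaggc
Top2a: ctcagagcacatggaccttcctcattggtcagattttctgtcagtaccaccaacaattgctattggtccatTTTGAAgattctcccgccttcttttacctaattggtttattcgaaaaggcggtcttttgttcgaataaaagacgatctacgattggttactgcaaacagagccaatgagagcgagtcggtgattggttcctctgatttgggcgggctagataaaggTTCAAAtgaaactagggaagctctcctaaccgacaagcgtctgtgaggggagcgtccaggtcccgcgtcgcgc
Kif11: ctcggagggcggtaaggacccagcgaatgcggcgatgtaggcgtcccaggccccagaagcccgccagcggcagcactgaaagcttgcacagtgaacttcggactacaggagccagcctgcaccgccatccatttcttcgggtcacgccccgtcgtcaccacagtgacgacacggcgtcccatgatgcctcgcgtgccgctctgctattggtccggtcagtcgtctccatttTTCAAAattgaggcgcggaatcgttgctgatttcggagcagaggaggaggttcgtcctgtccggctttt
Cdc20: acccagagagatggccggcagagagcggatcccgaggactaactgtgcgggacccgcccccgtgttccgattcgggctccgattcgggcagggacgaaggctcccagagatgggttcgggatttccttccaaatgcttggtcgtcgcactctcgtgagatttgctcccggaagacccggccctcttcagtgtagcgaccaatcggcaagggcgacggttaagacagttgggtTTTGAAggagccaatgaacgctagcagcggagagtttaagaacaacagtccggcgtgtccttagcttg
Ube2c: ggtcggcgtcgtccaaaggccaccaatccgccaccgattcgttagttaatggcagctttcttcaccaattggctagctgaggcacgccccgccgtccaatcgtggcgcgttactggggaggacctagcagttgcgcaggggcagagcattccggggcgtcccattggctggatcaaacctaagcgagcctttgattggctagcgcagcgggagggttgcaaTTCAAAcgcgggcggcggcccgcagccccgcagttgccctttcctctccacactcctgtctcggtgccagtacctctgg
Kif11 averaged -1.51 ± 0.12, Cdc20 -1.61 ± 0.15 and Ube2c -2.36 ± 0.26. Of the 16 mitosis genes with a promoter in the table, 11 held TTTGAA on either strand, which is 68.8%, against 20.2% of all 27025 genes with a promoter and 1 of 13 DNA replication genes. The CCAAT box, CCAAT on either strand, was in 14 of the 16 and in 41.1% of all genes. Both motifs are short and no test was made, so these shares only describe the letters in the windows. The CArG box, the serum response factor element, was searched only as CCWWWWWWGG, with W for A or T. For the 8 smooth muscle genes in the table this exact pattern was in 0 of these windows, against 1.81% of all genes. Stretches that differ from it at 1 base, as in the Acta2 window, were not counted. The count therefore does not show that the windows lack such elements, and says nothing of elements outside them.

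Of 11 immediate early genes 8 were called lower and 0 higher, with a median of -1.6: Fos averaged -3.28 ± 0.08, Egr1 -2.41 ± 0.17 and Nr4a1 -2.16 ± 0.11. Jun was not called, and with median centring it was lower at -1.08. Ier2, at -1.01, lost its call without control 2 or control 5. Of 10 ribosome biogenesis genes 5 were lower, with Nolc1 at -1.67 and Nop58 at -1.38. Other probes disagreed for Nolc1, at -0.27, and for Ncl, at 0.35 against -1.12 for the one used. Polr1b, another of the 5, lost its call without control 1. Among CDK inhibitors Cdkn1c (p57), a gene of cells that have left the cycle, was higher at 2.4 ± 0.1, and Cdkn2a, Cdkn2b and Cdkn2c were lower. Cdkn2a, which accumulates in cultured cells, averaged -4.9 ± 0.12 on the probe used, above background in Cy5 on 4 of 5 arrays, and -1.48 on another that was above it on none. Cdkn2b lost its call without control 2, at -0.91.

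Of 9 interferon response genes 6 were lower and 0 higher, with a median of -1.65, among them Oas1a at -3.23 ± 0.1 (another probe at -1.56) and Usp18 at -2.76 ± 0.15. Rsad2 read -1.29, 3.05, -1.17, -1.2 and -1.62, and without control 2 it was called lower, at -1.32. Of 8 MHC class I and immunoproteasome genes 4 were lower, with B2m at -1.64 and Psmb8 at -1.57, and H2-K1 and H2-D1 were not called at -0.15 and 0.24. With median centring H2-K1 and H2-D1 were called lower, at -1.5 and -1.11. Of 5 MHC class II genes 3 were higher: H2-Ab1 averaged 3.75 ± 0.14, H2-Eb1 2.72 ± 0.14 and H2-Aa 2.64 ± 0.43. Control 2 was highest in each, and all 3 were called without it. Of 11 macrophage and dendritic cell genes 4 were higher and 1 lower, with a median of 0.21. The scavenger receptor gene Mrc1 averaged 3.15 and the complement genes C1qc, C1qa and C1qb 2.89, 2.55 and 2.14, and Cd14 was lower at -2.48. Adgre1, the F4/80 macrophage antigen, was not called at -0.38, nor was Csf1r at -0.19.

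Hox genes mark position along the body axis, and their order on the chromosome follows it. Of 13 anterior Hox genes 3 were higher, Hoxc5 at 3.77 ± 0.1 or 13.7-fold, Hoxc4 at 1.87 ± 0.13 and Hoxb5 at 1.03 ± 0.09, and 1 was lower. Hoxc5 read 3.85, 3.58, 3.64, 3.57 and 4.23 in controls 1 to 5. Hoxc4 and Hoxb5 lost their calls with median centring, at 0.64 and 0.32, and Hoxb5 also without control 5. Of 14 posterior genes 6 were lower and 0 higher, namely Hoxc9, Hoxa11, Hoxb13, Hoxc10, Hoxc11 and Hoxa10, and these 6 were above background in Cy5 on no control array. Barx1, the stomach mesenchyme homeobox gene, was at least 7.99-fold higher. Gata6, a factor of glandular stomach, was lower at -1.68. These were the only 2 called of 10 foregut and stomach mesenchyme regulators. The other 8 were not called and the list median was -0.05. Of all genes with a symbol 10.4% were called higher and 7.85% lower, so the list as a whole shows no direction.

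Of 14 glutathione and conjugation genes 11 were higher and 0 lower, with a median of 2.07. Gpx2, the gastrointestinal glutathione peroxidase, read 7.12, 6.71, 6.49, 6.17 and 7.21, a mean of 6.74 ± 0.15 or 107-fold. The transferases Gsta2 and Gsta1 averaged 4.61 ± 0.19 and 3.64 ± 0.16, and these near-identical genes may share signal. The median was 0.74 with median centring, and 6 genes were then called. Of 12 genes of the aryl hydrocarbon receptor pathway and phase I metabolism, 2 were higher, Aldh3a1 at 2.52 ± 0.07 and Nqo1 at 2.14 ± 0.09, and Tiparp was lower at -1.53 on the probe used and at -0.02 on another. Nqo1 lost its call with median centring, at 0.94. Cyp1a1, which BaP induces, was above background in 2 of the 5 untreated animals and not called at 0.34. The list median of 0.31 turned to -0.53 with median centring. Of 14 repair and bypass polymerase genes 2 were lower, Ddb2 at -1.13 and Rad18 at -1.04, and Rad18 lost its call without control 5. Of all genes with a symbol 7.85% were called lower. The list median of -0.43 moved to -1.24 with median centring, where 8 of the 14 were lower. With the scanner's processed signals 6 were lower.

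Of 15 retinoid and alcohol metabolism genes 8 were higher and 1 lower. Adh1 averaged 4.85 ± 0.17, Aldh1a1 4.05 ± 0.11 and the retinoic acid hydroxylase gene Cyp26b1 3.84 ± 0.13. The retinoic acid binding proteins went apart, with Crabp2, of differentiating skin, at 3.85 ± 0.11 and Crabp1 at -3.21 ± 0.17. Of 13 fatty acid oxidation genes 9 were higher and 0 lower, with a median of 1.38 that was 0.02 with median centring, where 3 were called. Ppara, the receptor that drives them, averaged 4.56 ± 0.1, with other probes at 3.22 and 2.47, and its target Pdk4 3.38 ± 0.11. Both were still called with median centring, at 3.51 and 2.38.

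The sex of the animals and the level of common reference genes were checked on the same arrays. Xist, the X inactivation transcript of female cells, was at least 3.19-fold lower in the male tissue and above background in Cy5 on 0 arrays, and Eif2s3y, on the Y chromosome, was higher at 1.49. The other 3 of 4 Y chromosome genes were not called, 1 of them above background in neither channel on any array, and the list median was 0.51. The Eif2s3y call was lost with median centring, at 0.46, and 0 of the 4 were then called. Of 11 housekeeping genes 1 was called higher and 3 lower, with a median of 0.01. With median centring 0 were higher and 7 lower, with a median of -1.34, so the level near 0 depends on the centring. Pgk1 and Gusb both averaged -2.42, Gapdh averaged -1.11 and Actb 1.08, and Sdha, Ppia and Rplp0 lay within 0.22 of 0. With median centring Actb turned to -0.33, Sdha to -1.34 and Rplp0 to -1.19, and Ppia was at -1.52. Actb also lost its call without control 3, at 0.92. The other 6 Gapdh probes averaged -2.25 to -0.55.

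Cy5 varies with the animal and the array, while Cy3 held the same RNA each time, so their spreads are set side by side as a description and not as a test. Over the 11266 genes above background in both channels on all 5 arrays, the median standard deviation (SD) of log2 signal was 0.22 in Cy5 and 0.11 in Cy3. In Cy5 119 genes had an SD over 1, and control 2 was the animal farthest from the median for 78 of them, control 1 for 21, control 5 for 10, control 3 for 7 and control 4 for 3. The 12 most variable genes, among those above background in Cy5 on all 5 arrays, were of blood and liver cells. Averaged over its genes, the red blood cell list was 4.43 log2 units above the mean of the 5 animals in control 2. The B cell list was 2.14 and the MHC class II list 1.97 above it.

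Hba-a1, an alpha globin, had log2 Cy5 levels of 12.9, 18.95, 11.5, 12.22 and 12.17 in controls 1 to 5, and Hbb-b2, a beta globin, 8.82, 17.89, 9.65, 10.33 and 10.63. Hbb-bt, another beta globin, had a Cy5 SD of 3.38. Alas2, the haem synthesis enzyme of red cells, had an SD of 3.22, and Slc4a1, their anion exchanger, 2.77. Control 2 was highest for each of these genes, with a gap to the other 4 animals in each of these genes. The B cell receptor gene Cd79b read 7.43, 12.95, 7.46, 8.01 and 6.88, and Tent5c had an SD of 2.44. As ratios, Cd79b was 2.1 in control 2 against -4.08 to -2.62 in the others, so the cell line pool lay above the tissue in 4 animals and below it in 1. Without control 2, Cd79b and Tent5c were called lower, each at -3.39. In the same animal the 7 squamous lists (keratinocyte, keratin, envelope, junction, protease, lipid and transcription factor genes) moved by -0.54 to -0.18, the epithelial antimicrobial list by 0.54 and smooth muscle by -0.04. Exsanguination came before removal of the organ, and whether blood or lymphoid tissue was in the piece from control 2 was not tested.

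Liver genes varied in another animal. Alb (albumin) had log2 Cy5 levels of 13.9, 9.75, 10.95, 8.56 and 6.58, and Serpina1a (alpha-1 antitrypsin) 15.67, 12.12, 12.74, 10.91 and 8.71. Serpina1e and Serpina1c, near-identical copies that can share signal, had SDs of 2.54 and 2.52. Control 1 was highest and control 5 lowest in each, with the others between them. Of 10 hepatocyte genes 7 were called higher and Afp (alpha-fetoprotein), a fetal serum protein gene, was lower at -2.08. Without controls 1 and 2 together, an alternative chosen after their values were seen, 5 of 10 were called higher. On the ratio scale Trf (transferrin) read 5.84, 5.12, 4.51, 4.13 and 3.33 and stayed above the pool in every animal. Whether liver tissue was carried along was not tested. Fat cell genes varied as well: Adipoq (adiponectin) read 4.37, 0.09, 1.7, 4.12 and 2.27, and Cfd (adipsin) 7.16, 0.3, 4.14, 6.57 and 5.18. Controls 1 and 4 were high and control 2 near 0, while Fabp4, which endothelium also makes, ran only from 5.83 to 6.83.

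The reference channel was not constant for all of these genes. In background-subtracted signal Hba-a1 gave 4580, 281000, 1450, 1860 and 4640 in Cy5 and 510, 21200, 318, 445 and 410 in Cy3. The Cy3 signal of control 2 was thus far above that of the other arrays although the same pool was hybridised. Alb gave 9020, 544, 1040, 172 and 32 in Cy5 and 671, 63.5, 122, 37 and 10 in Cy3, the same order in both channels. Cd79b, by contrast, gave 45, 4340, 35, 53 and 54.5 in Cy5 and 3010, 3550, 2370, 2120 and 3690 in Cy3, and Mup20 gave up to 5370 in Cy5 and no more than 6 in Cy3. Of 20 genes with a Cy3 SD over 1, 13 had the same farthest animal in both channels. For the globins and serum proteins the ratio therefore understates how far the animals differed in Cy5, and the cause was not tested.

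**Figure D4:**
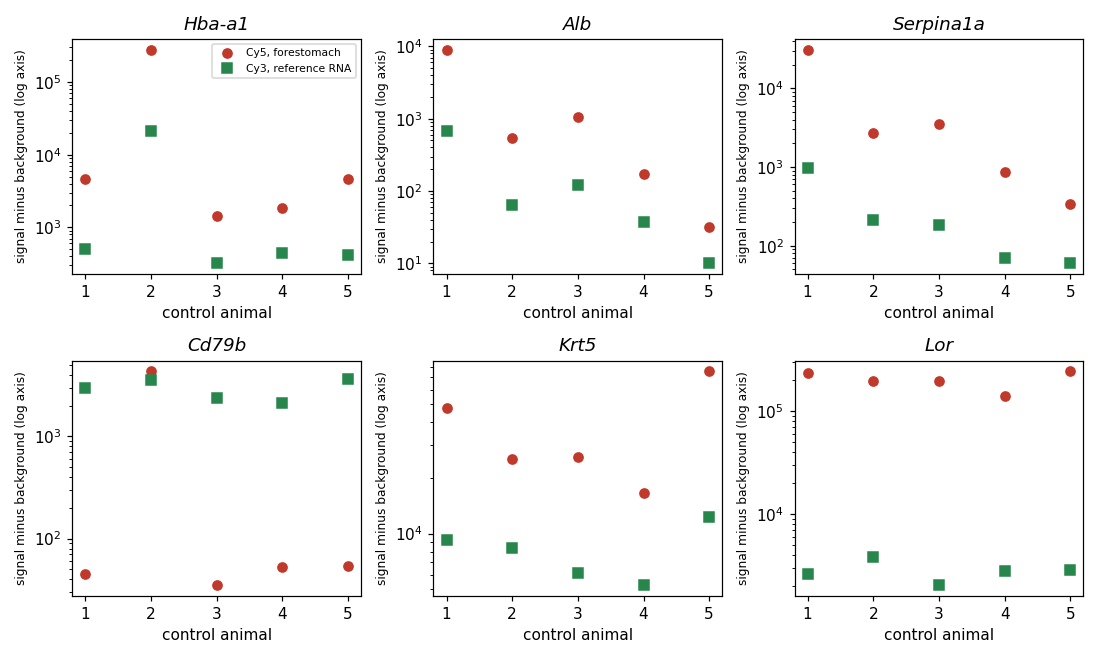
Background-subtracted signal in Cy5 (forestomach, circles) and Cy3 (reference RNA, squares) on the 5 control arrays, on log axes, for 6 genes. For Hba-a1, Alb and Serpina1a the Cy3 signal follows Cy5 across arrays, as in Hba-a1 with 21200 on the array of control 2 against 318 to 510 on the others, whereas for Cd79b Cy3 stays between 2120 and 3690.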

How the data were processed

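Forestomach RNA (Cy5) and Universal Mouse Reference RNA (Cy3) were hybridised together on 2-colour Agilent arrays, and samples were grouped by their titles. The deposited scanner tables hold linear spot intensity, which, per the file headers, Feature Extraction 10.7.3.1 had extracted. The authors' deposited series table holds log2 values whose normalization is not given in the sources used here. Its columns correlated at 0.998 to 0.999 with log2 Cy5 over Cy3 made without background correction, which settles scale and direction, and had medians of -0.03 to -0.02.

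From the median signal and background of each spot, log2 ratios were made with normexp (offset 50) and loess in limma 3.58.1 (R 4.3.3), after which the 3671 control spots per array were left out. No filter on dim probes was used. Spots of 1 probe were averaged. Of 55681 probes, 26413 matched 1 gene symbol through a RefSeq accession, 0 matched several and 29268 none, and unnamed probes kept their own feature, giving 37163 features. The brightest probe stood for a gene. The fit was limma's lmFit and eBayes on the 5 control arrays with an intercept only, Benjamini-Hochberg adjusted. Cy5 levels are the channel after loess and Aquantile scaling. The fit was tested on simulated data.

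Genes were named by rule. In each direction these were the 12 with the largest ratios among called genes above background in both channels, and the 8 with the largest bounds. The 12 with the largest Cy5 SD and members of 56 lists of cell type and pathway genes were added. Of the list members, 11 were not matched to a probe by symbol. Some genes that met these rules are not reported here. Other probes of these genes were added after their values were seen. The comparison, its members and the lists were chosen with earlier results of these data known. Each control is 1 animal. The alternatives were other background, scaling and centring, the deposited series table, a filter on dim probes, all 17 arrays in 1 fit, the mean over probes, slide as a random block, other call rules, and leaving out each control.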

Additional observations from a re-analysis of the deposited data

Results flagged for a closer look

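In 55 gene lists and 331 genes tested over the 5 control animals, 4 list medians and 24 genes had 1 animal whose gap to the nearest other was over 0.71 of the whole range. For independent values from 1 normal distribution this rule flags about 1 in 20. That rate does not hold here, because the genes share the same animals and include those chosen for the largest Cy5 SD on these arrays. The number of flags is therefore not set against chance. Control 2 was the outlying animal in 14 of the 28 cases, control 5 in 12, control 1 in 1 and control 4 in 1. The causes were not tested. All values are log2 ratios of forestomach over reference RNA.

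In control 2 the median of the red blood cell list was 5.32, against 0.37 to 0.9 in the others, and that of the macrophage and dendritic cell list was 1.17, against 0.04 to 0.25. Blood cell genes of control 2 that stood apart were Alas2 at 5, Slc4a1 at 5.71, Cd79b at 2.1, Tent5c at 2.15 and Jchain, the joining chain of secreted antibodies, at -0.23 against -3.73 to -2.74. Psmb8 stood at -0.22 and Isg15 at -0.41, against at most -1.7 and -1.75 in the others. The proliferation genes Mki67, Ccna2 and Mcm2 stood at -0.82, -0.93 and -1.24, each nearer to the pool than in the other animals. Klf4 was low in the same animal, at 2.28 against 2.92 to 3.09, and so was Ugcg, a glucosylceramide synthase gene, at 1.49 against 1.7 to 1.78.

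In control 5 the interferon response list had a median of -2.28, against -1.55 to -1.37, and Irf7 was at -2.42. Higher in control 5 than in the other animals were Elovl4 at 8.68, Col17a1 at 5.52, Grhl3 at 6.6, Zfp750 at 5.55, Pnpla1 at 2.7, Nqo1 at 2.54 and Aldh1a1 at 4.57. Rad18 was at -1.8 there, against -1 to -0.69, on a probe above background in Cy5 on 4 of the 5 arrays, and the Irf7 probe was above it on 3. Hpgd, at 6.53, and Xist, at -2.47, also stood apart in control 5. Their reference and tissue channels respectively were above background on no control array, so no order of the animals is read from them. Control 5 was the only control on its slide, so that animal and its slide cannot be told apart.

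The circadian clock list had a median of -0.38 in control 1, against -0.03 to 0.08 in the others, and Actg2 was at 5.38 in control 4, against 6.2 to 6.44.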

How the results depend on the processing

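Counts of called features, 2600 higher and 2055 lower, moved by over 1.5 times in at least 1 direction under 5 alternatives. They were 1322 and 8677 with median centring, 4048 and 6055 with the scanner's processed signals, 1074 and 402 at 4-fold or more, 8277 and 8486 with no minimum fold, and 1643 and 1116 with limma's treat against 2-fold. Leaving out each control in turn gave 2584 to 2653 higher and 1997 to 2163 lower, and leaving out controls 1 and 2 together, chosen after seeing the data, gave 2627 and 2176. With slide as a random block the counts were 2598 and 2052. With median centring the median of genes with a symbol moved to -0.3, and over 611 named genes 40 calls ended and 57 began. Signs turned with median centring for Itga6 (-1.19), Dst (-1.04), Ovol2 (-0.04), Cd4 (-0.16), H2-D1 (-1.11), Gstm2 (-0.14), Btg2 (-1.12), Cpt1a (-0.02), Hadha (-0.1), Tef (-1.12), Jun (-1.08), Egfr (-0.12), Actb (-0.33), Rplp0 (-1.19) and Sdha (-1.34). Only named genes called under loess or median centring are given here. Signs also turned for the medians of the fibroblast list (-0.51), the lymphoid precursor list (0.09) and the aryl hydrocarbon receptor list (-0.53). In these lists both medians exceeded the SD of the list's array medians. Without that rule the medians of the housekeeping (-1.34), EGF family (-0.09) and anterior Hox (-0.13) lists turned as well. So did those of the T cell and NK cell (-0.16) and pluripotency (-0.04) lists. The cause was not tested. The median spread between animals was 0.20 to 0.23 under its alternatives. Forestomach and reference were compared within each array, so each ratio pairs the channels of that array. Control and treated animals could not be paired, because replicate numbers do not repeat across groups. Signal over background limits the dim genes, whose ratios rest on background signal in 1 channel.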
